A study of Mus musculus with 6 samples.

Results

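The IGF axis was followed as 10 genes of the count table, chosen by name, out of 57010 genes in all: the ligands Igf1 and Igf2, the receptors Igf1r and Igf2r, and the binding proteins Igfbp2, Igfbp3, Igfbp4, Igfbp5, Igfbp6 and Igfbp7. All 10 passed the filter on low counts, which kept 14799 genes for testing. The data were 6 RNA-seq libraries of primary cardiomyocytes from newborn C57BL/6 mice (NMCMs), all kept under hypoxia (HO). The 3 libraries of the HO + Vehicle group were named V1 to V3, and the 3 of the HO + β-SITO group, which also received the plant sterol β-sitosterol, were named T4 to T6. Normoxic cells were not analysed here, and the dose and the duration for these libraries are not given in the sources used here. Nothing in the labels says whether the 3 libraries of a group came from separate cultures, so p-values measure the spread between these libraries, which may be technical.

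IGF-I and IGF-II are small secreted hormones related to insulin. Both act through the tyrosine kinase receptor encoded by Igf1r, which feeds the PI3K-AKT and MAPK pathways, while the large receptor encoded by Igf2r takes IGF-II to lysosomes and also sorts lysosomal enzymes. Outside the cell most IGF is held by the IGF-binding proteins, which prolong its life and limit its access to the receptor until a protease such as PAPP-A releases it. In the heart the axis is known for its part in fetal growth of the myocardium and in the survival of cardiomyocytes, and fibroblasts and macrophages are known sources of IGF-I.

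The libraries held 16694734 to 18460522 counts each, and values are given as CPM, the counts scaled to the TMM-normalized library size. The 10 cardiomyocyte markers were all detected, and Actc1 was the most abundant of them per length under vehicle. The 9 fibroblast markers, led per length by Col1a1 under vehicle, were more abundant as a sum. Their summed level was 3753 to 3846 CPM per kb in the HO + Vehicle group, against 2195 to 2519 CPM per kb for the cardiomyocyte list. Most of this fibroblast sum came from the collagen genes Col1a1, Col3a1 and Col1a2, with vehicle means of 1387, 1062 and 547.2 CPM per kb. The next marker, Dcn, had 326.7 CPM per kb, so the excess rested on the collagens. Per length, the fibroblast list exceeded the cardiomyocyte list in all 6 libraries, although the cultures had been separated from fibroblasts by adhesion. In such bulk samples fewer cells of a type and less RNA per cell cannot be told apart. Library names of the HO + β-SITO group carry the suffix C. Whether this marks a separate preparation is not given in the sources used here, and such a preparation and the treatment cannot be told apart.

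With β-SITO the ligand transcripts were higher, led by a 20.8-fold difference for Igf2 and a 6.13-fold difference for Igf1. Igfbp4 rose 6.04-fold, Igfbp6 3.30-fold and Igf2r 2.12-fold. Igfbp7, Igfbp3 and Igfbp5, the most abundant binding proteins under vehicle, differed by 1.30-fold or less between the groups. Differentially expressed genes (DEGs) were defined by an adjusted p under 0.05 in edgeR's quasi-likelihood test together with a change of more than 2-fold. By this rule 5 of the 10 genes were DEGs and all 5 were higher, where 22.8% of all tested genes were DEGs and 12.8% were DEGs in the higher direction. The 10 genes were chosen with earlier results of these data known, so no test was run on this count. No member was a DEG in the lower direction. Without the fold threshold 9 of 10 passed, 7 higher and 2 lower, against 66.8% of all tested genes. Libraries of the groups were fully separated for 9 of the 10, against 70.5% of all tested genes. The median log2 fold change (log2FC) was 0.89 over the 10 genes and -0.0073 over all tested genes.

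**Figure D1:**
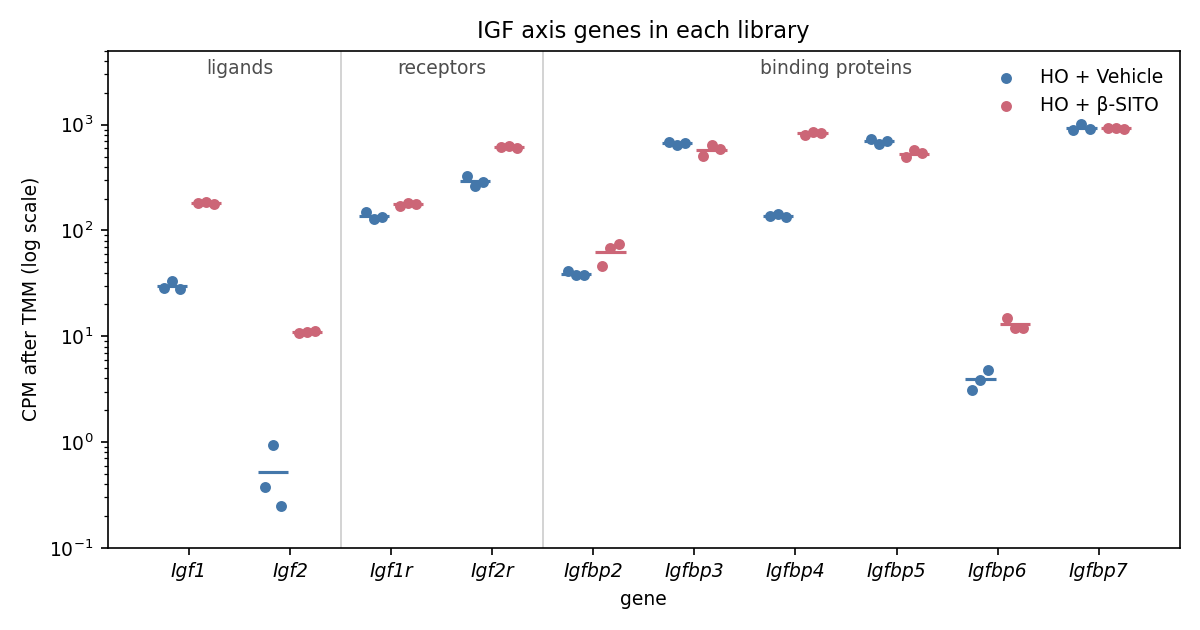
Level of each IGF axis gene in CPM (log scale) in every library, with a point per library and a line at the group mean. The groups are farthest apart for Igf2 (0.522 against 11.0 CPM) and Igf1 (29.8 against 182.4 CPM), and they overlap for Igfbp7.

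Promoters are shown for both ligands, for the receptor that was a DEG and for the most abundant binding protein that was a DEG. RefSeq promoter windows on build GRCm38.p6 were found for all 10 members, 14 windows in total because Igf2 has 4 and Igfbp2 has 2. The sequences below are the 250 bases before the annotated start, with matches to 4 motifs in capitals.
Igf1 (chr10:87860861-87861110, plus strand): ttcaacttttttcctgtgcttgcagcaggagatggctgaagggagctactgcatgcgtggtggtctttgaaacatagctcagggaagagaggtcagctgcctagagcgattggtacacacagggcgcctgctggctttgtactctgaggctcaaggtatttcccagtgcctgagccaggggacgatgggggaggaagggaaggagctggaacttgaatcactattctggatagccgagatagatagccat
Igf2, most downstream start (chr7:142657497-142657746, minus strand): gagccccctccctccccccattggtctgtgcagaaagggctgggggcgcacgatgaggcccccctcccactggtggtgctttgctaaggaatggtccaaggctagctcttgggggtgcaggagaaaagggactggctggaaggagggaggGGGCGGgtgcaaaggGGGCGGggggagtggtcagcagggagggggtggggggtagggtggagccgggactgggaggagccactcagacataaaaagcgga
Igf2r (chr17:12769707-12769956, minus strand): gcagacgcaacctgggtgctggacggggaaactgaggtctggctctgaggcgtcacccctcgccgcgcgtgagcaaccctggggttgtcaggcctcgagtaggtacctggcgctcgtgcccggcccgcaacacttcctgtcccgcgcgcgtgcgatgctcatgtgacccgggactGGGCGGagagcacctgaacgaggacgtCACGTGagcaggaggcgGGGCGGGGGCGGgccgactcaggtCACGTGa
Igfbp4 (chr11:99040994-99041243, plus strand): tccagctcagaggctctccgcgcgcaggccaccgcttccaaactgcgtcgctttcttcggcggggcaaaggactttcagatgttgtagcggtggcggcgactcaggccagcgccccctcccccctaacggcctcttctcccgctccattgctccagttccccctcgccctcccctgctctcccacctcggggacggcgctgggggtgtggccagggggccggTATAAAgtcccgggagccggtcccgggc
The motifs, searched on both strands, were the TATA box TATAAA, the GC box GGGCGG bound by SP1, the E-box CACGTG and the STAT-type site TTCNNNGAA. Igfbp4 held a TATA box that began 28 bases before the start, a position usual for this element. Igf2r held 3 GC boxes, of which 2 lay directly next to each other, and 2 E-boxes. The Igf2 window shown held 2 GC boxes, and the Igf1 window held none of the 4 motifs. Among all 14 windows of the members, 6 (42.9%) held a GC box, against 32.7% of 32851 promoters. An E-box was in 2 (14.3%), against 6.02% of promoters, and a TATA box in 2 (14.3%), against 12.4%. The STAT-type site was in 0 of 14, against 7.02%. These matches describe the letters of the windows and say nothing of binding in these cells.

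Igf1 encodes IGF-I (ENSMUSG00000020053; chromosome 10, 87694127 to 87772904, plus strand; build GRCm39 per the submitters' processing notes, as for all gene coordinates here). It had 28.4, 33.1 and 27.8 CPM in V1, V2 and V3, and 182.1, 187.0 and 178.2 CPM in T4, T5 and T6. The libraries of each group lay close together and the groups did not overlap. The mean rose from 29.8 ± 2.90 to 182.4 ± 4.40 CPM (SD, n = 3), a log2FC of 2.62 ± 0.0718 (SE; edgeR adjusted p = 5.20e-14). Only 2.20% of tested genes had a larger log2FC. Among tested genes ordered by mean CPM, Igf1 stood at place 6101 in the HO + Vehicle group and at place 898 in the HO + β-SITO group.

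Igf2 encodes IGF-II, the fetal growth factor that is expressed from the paternal chromosome (ENSMUSG00000048583; chromosome 7, 142204503 to 142220553, minus strand). It was barely detected under vehicle, with 6, 15 and 4 counts in V1, V2 and V3, and had 210, 196 and 214 counts in T4, T5 and T6. These counts correspond to 0.522 ± 0.368 against 11.0 ± 0.176 CPM (SD, n = 3). The log2FC was 4.38 ± 0.25 (SE; edgeR adjusted p = 3.75e-10), and 0.291% of tested genes had a larger one. From the pooled counts, 25 against 620, the ratio was 21.0 with an exact 95% interval of 14.1 to 32.8, which covers counting error only. V2 held more than the other vehicle libraries together, and without it the log2FC was 5.105.

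Both ligands were thus higher, but from different starting levels. Per kb of exon, the summed ligand level was 3.10 ± 0.357 CPM per kb under vehicle and 20.3 ± 0.437 CPM per kb with β-SITO (SD, n = 3). Igf1 exceeded Igf2 in every library. The ratio of their levels per length was 20.3 to 64.9 under vehicle and 9.25 to 9.81 with β-SITO. Igf2 made up 2.82 ± 1.66% of the ligand level per length in the HO + Vehicle group and 9.44 ± 0.280% with β-SITO (SD, n = 3).

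Igf1r encodes the signalling receptor (ENSMUSG00000005533; chromosome 7, 67602575 to 67883416, plus strand). It had 149.8, 127.5 and 133.6 CPM in V1, V2 and V3, and 172.2, 181.9 and 177.7 CPM in T4, T5 and T6. The groups did not overlap, and the difference was small. The log2FC was 0.37 ± 0.0652 (SE; edgeR adjusted p = 1.25e-04), below the 2-fold threshold.

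Igf2r encodes the clearance receptor, which is also the cation-independent mannose 6-phosphate receptor (ENSMUSG00000023830; chromosome 17, 12901293 to 12988551, minus strand). It had 326.8, 261.3 and 287.8 CPM in the vehicle libraries and 620.3, 631.1 and 608.2 CPM in the β-SITO libraries. All β-SITO libraries lay far above all vehicle libraries. The log2FC of 1.09 ± 0.0735 (SE; edgeR adjusted p = 3.35e-09) was just past 2-fold, and glmTreat, which tests for a change beyond 2-fold, did not call it (adjusted p = 0.226). The level of Igf2r per length relative to Igf1r was 3.70 to 3.93 under vehicle and 6.17 to 6.50 with β-SITO. Igf2r was thus the more abundant receptor transcript in every library.

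Igfbp4 encodes a binding protein that holds IGF until it is cut by PAPP-A (ENSMUSG00000017493; chromosome 11, 98932070 to 98945218, plus strand). It had 136.9, 142.0 and 133.9 CPM in V1, V2 and V3, and 800.6, 857.5 and 837.0 CPM in T4, T5 and T6. The replicates were tight in both groups. It had a log2FC of 2.60 ± 0.0610 (SE; edgeR adjusted p = 7.77e-15), the smallest adjusted p of the 10 genes. In order of mean CPM it moved from place 1543 to place 114 of the 14799 tested genes.

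Igfbp6 encodes the binding protein that prefers IGF-II (ENSMUSG00000023046; chromosome 15, 102052797 to 102057946, plus strand). It was the binding-protein gene with the lowest level among the members, at 3.10, 3.82 and 4.83 CPM in the vehicle libraries and 14.95, 11.9 and 12.1 CPM in the β-SITO libraries. The groups did not overlap. This gave a log2FC of 1.72 ± 0.16 (SE; edgeR adjusted p = 1.13e-07).

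Igfbp2 encodes a binding protein abundant in fetal tissues (ENSMUSG00000039323; chromosome 1, 72863662 to 72891633, plus strand). It had 41.2, 37.9 and 37.9 CPM in the vehicle libraries and 46.2, 68.0 and 75.01 CPM in T4, T5 and T6. T4 lay nearer to the vehicle libraries than to T5 and T6. The log2FC of 0.69 ± 0.13 (SE; edgeR adjusted p = 2.34e-04) did not reach 2-fold, and it was 0.88 without T4. T4 was also the β-SITO library with the lowest summed level of the cardiomyocyte markers, 5338 CPM against 8953 and 9118 CPM in T5 and T6, and the part of these markers in the spread of Igfbp2 was not tested.

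Igfbp5, a binding protein with affinity for the extracellular matrix, lies 5457 bases from Igfbp2 on the opposite strand, with the 3′ ends facing each other (ENSMUSG00000026185; chromosome 1, 72897091 to 72914043, minus strand). These neighbours differed in opposite directions. Igfbp5 had 727.1, 652.6 and 704.0 CPM under vehicle and 492.9, 573.7 and 534.2 CPM with β-SITO, without overlap. Its log2FC was -0.38 ± 0.0677 (SE; edgeR adjusted p = 1.43e-04).

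Igfbp3, the main carrier of IGF in the circulation, differed little (ENSMUSG00000020427; chromosome 11, 7156086 to 7163923, minus strand). It had 682.7, 641.9 and 668.3 CPM in V1, V2 and V3, and 501.4, 636.8 and 584.3 CPM in T4, T5 and T6. V2 and T5 were nearly level. It had a log2FC of -0.21 ± 0.0764 (SE; edgeR adjusted p = 0.0242). It did not pass without V1 (adjusted p = 0.102), without V3 (adjusted p = 0.108) or without T4 (adjusted p = 0.105), nor when TMM was replaced by plain library size (log2FC -0.062, adjusted p = 0.481). Igfbp1, its neighbour at a distance of 3539 bases and a gene known from liver, had 1 count in T4 and 0 counts in each of the other 5 libraries.

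Igfbp7 encodes a secreted relative that binds IGF weakly and is known from vessels (ENSMUSG00000036256; chromosome 5, 77497087 to 77555888, minus strand). It had 899.0, 1014 and 906.7 CPM under vehicle and 926.8, 920.6 and 916.9 CPM with β-SITO. The groups overlapped, and the log2FC of -0.029 ± 0.062 (SE) did not pass (edgeR adjusted p = 0.700). Its sign depended on the scaling, since it was 0.12 with library size only.

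**Figure D2:**
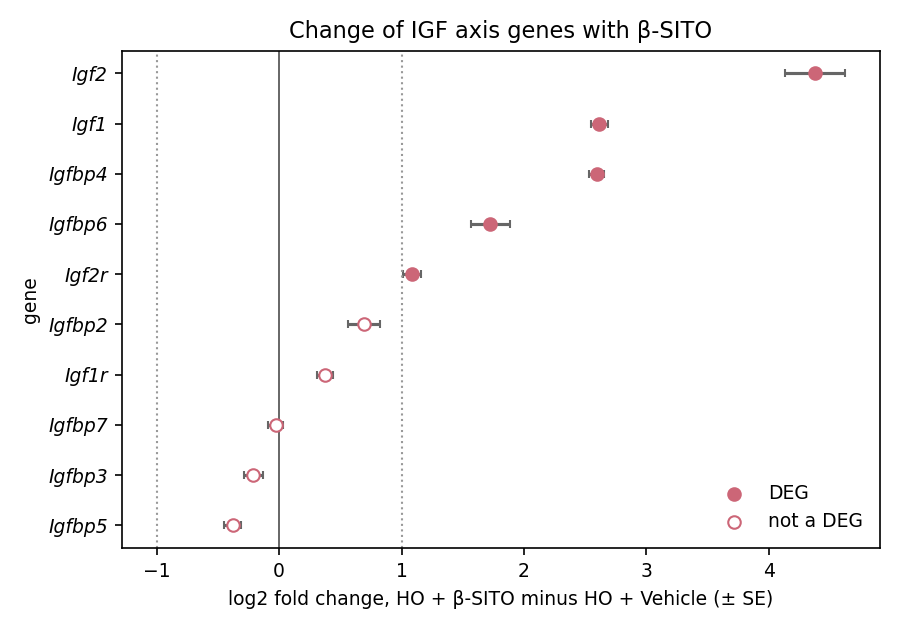
Log2FC of each IGF axis gene, HO + β-SITO minus HO + Vehicle, with its standard error, ordered by size. Filled points are DEGs, and dotted lines mark a change of 2-fold in either direction. Igf2 (4.38) lies highest and Igfbp5 (-0.38) lowest.

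The 6 binding proteins were compared per kb of exon, so that genes of different length could be set side by side. Their summed level was 1139, 1209 and 1136 CPM per kb in V1, V2 and V3, and 1229, 1302 and 1275 CPM per kb in T4, T5 and T6. The total thus differed by far less than the levels of Igfbp4 and Igfbp6. The make-up of this total was different. Igfbp4 held 2.68 ± 0.0334% of it under vehicle and 14.8 ± 0.0802% with β-SITO (SD, n = 3). The share of Igfbp7 was 66.9 ± 2.20% and 60.1 ± 2.03%, that of Igfbp3 was 18.3 ± 1.17% and 14.4 ± 1.31%, and that of Igfbp5 was 9.98 ± 0.872% and 6.997 ± 0.329% (SD, n = 3). Under vehicle the order by level per length was Igfbp7, Igfbp3, Igfbp5, Igfbp4, Igfbp2 and Igfbp6. With β-SITO Igfbp4 stood next to Igfbp3. Their means of 188.3 ± 6.52 and 183.4 ± 21.8 CPM per kb (SD, n = 3) did not differ beyond their spread. The ratio of Igfbp4 to Igfbp3 was 0.142 to 0.157 in the vehicle libraries and 0.954 to 1.13 in the β-SITO libraries. No test was run on these shares, because the genes were chosen with results of these libraries known.

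**Figure D3:**
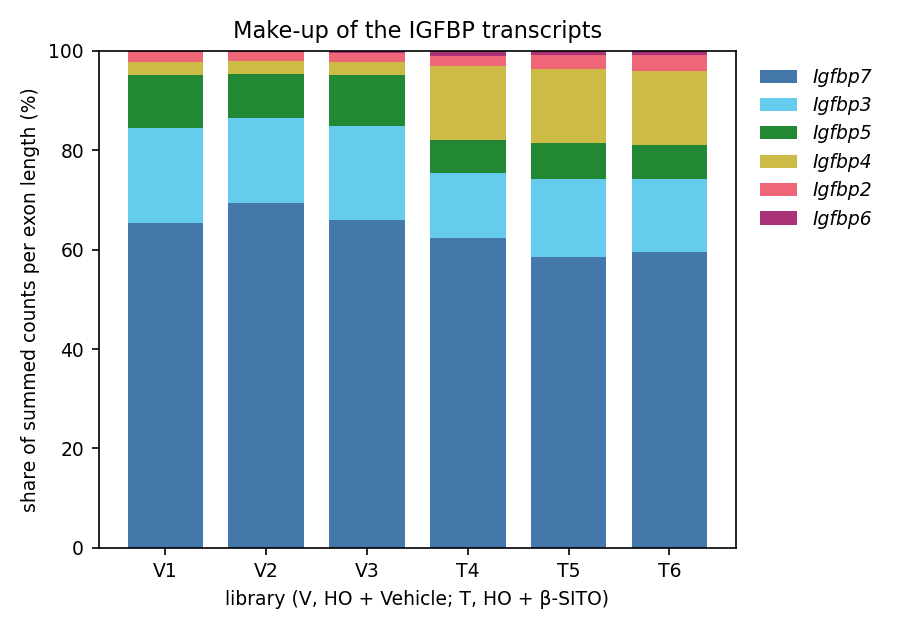
Share of each binding protein in the summed counts per exon length of the 6 binding-protein genes, as stacked bars for each library. The Igfbp4 segment is 2.66% to 2.72% in the vehicle libraries and 14.8% to 14.9% in the β-SITO libraries, and Igfbp7 holds the largest segment in all 6 libraries.

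The genes that surround the axis were taken from 7 hand-written lists. Of their 70 tested genes 20 were DEGs (28.6%), near the 22.8% of all tested genes. The directions were uneven, as 18 of the 70 were DEGs in the higher direction, against 12.8% of all tested genes. Among regulators of IGF outside the cell, 3 of 5 tested genes were DEGs and all 3 were higher, against the same 12.8%. Pappa, which encodes the protease PAPP-A that cuts IGFBP4, rose from 7.87 ± 0.4002 to 58.2 ± 2.89 CPM (SD, n = 3), a log2FC of 2.89. Its relative Pappa2, which cuts IGFBP3 and IGFBP5, had a log2FC of 2.24. Stc1, which encodes an inhibitor of PAPP-A, had a log2FC of 1.74, and the other inhibitor of the family, Stc2, had one of -0.49 (76.8 ± 2.85 against 54.6 ± 1.13 CPM, SD, n = 3). For these 4 genes edgeR gave an adjusted p of at most 3.19e-06. Igfals, Igfbpl1 and Igfbp1 did not pass the filter, with at most 14 counts in any library.

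The list on the Igf2 and Igf2r loci and on regulators of Igf2 had 9 tested genes, of which 4 were DEGs, all higher. Over all tested genes 12.8% were DEGs in this direction. The other 5 genes of the list were lower by less than 2-fold with an adjusted p under 0.05, and its median was -0.30. H19, the maternally expressed noncoding RNA of the Igf2 locus, had 88.3, 80.1 and 69.8 CPM in V1, V2 and V3, and 1246, 1130 and 1197 CPM in T4, T5 and T6. No vehicle library came near the β-SITO libraries. H19 had a log2FC of 3.91 ± 0.0855 (SE; edgeR adjusted p = 3.41e-15), and Igf2 and H19 thus both rose. Plagl1, an imprinted zinc finger factor known to act on Igf2 and H19, had a log2FC of 1.43. The opposite-strand transcripts Igf2os (2.38) and Airn (1.03) were also higher, and Airn was no longer a DEG without V3 (0.91), without T4 or with glmTreat (adjusted p = 0.902). Igf2os overlaps Igf2 by 7124 bases and Airn overlaps Igf2r by 28354 bases, and strand-specific counting is not stated. Without it their reads cannot be told apart from those of the sense genes. The mRNA-binding proteins Igf2bp1, Igf2bp2 and Igf2bp3, which bind Igf2 mRNA, had log2FC values of -0.92, -0.50 and -0.30, with adjusted p of 0.0112 or lower and without a 2-fold change. Hmga2 (-0.82) and Plag1 (-0.71), other activators of this fetal program, also lay below the 2-fold threshold.

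All 7 tested genes within 200 kb of Igf2 were then inspected, a region chosen after the values of Igf2 and H19 had been seen. Of these genes 6, including Igf2, H19 and Igf2os, were DEGs with higher levels after β-SITO. Without Igf2 and H19, whose values led to this choice, 4 of 5 were, where 12.8% of all tested genes were DEGs in this direction. Among these 4, Igf2os overlaps Igf2, and Prr33 overlaps Lsp1 and Tnnt3 on the opposite strand. Without strand-specific counting the reads of such pairs cannot be told apart, so the 4 genes are not independent of Igf2 or of each other. H19 lies 72616 bases from Igf2. Beyond it Mrpl23, which encodes a mitochondrial ribosomal protein, had 24.6 ± 3.16 CPM under vehicle and 24.1 ± 1.004 CPM with β-SITO (SD, n = 3), and its log2FC was -0.028 (edgeR adjusted p = 0.802). Farther out Lsp1, which encodes an actin-binding protein of leukocytes, had a log2FC of 1.99 (adjusted p = 2.06e-13). Tnnt3 (1.68) and Prr33 (2.12) were also DEGs at low levels, with means under 2 CPM in both groups.

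**Figure D4:**
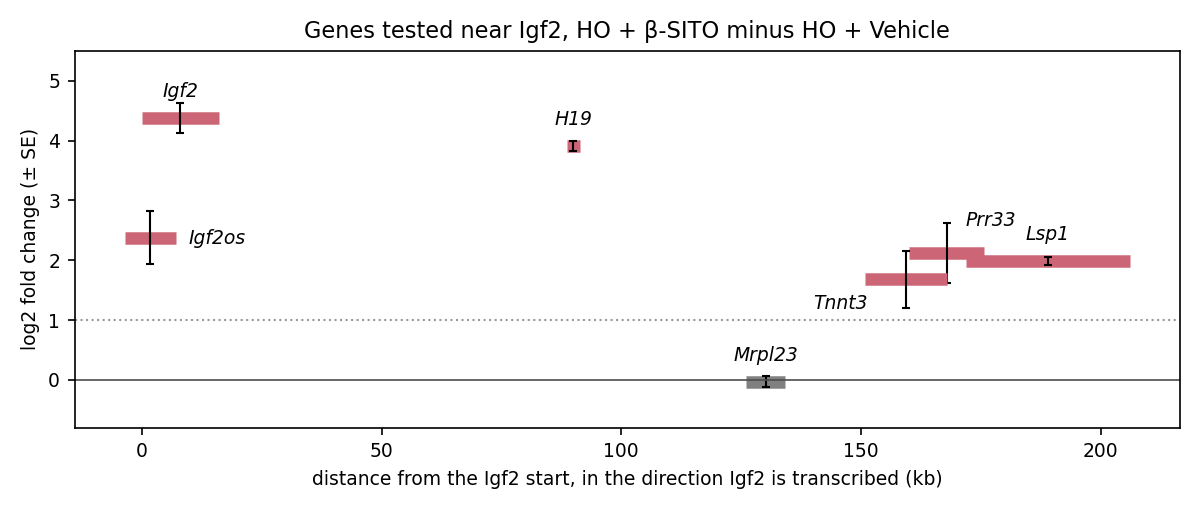
Genes tested within 200 kb of Igf2, drawn by their distance in kb from the Igf2 start along the direction of Igf2 transcription, against their log2FC with its standard error. Coloured bars are DEGs and the dotted line marks 2-fold. Igf2 (4.38) and H19 (3.91) stand above the others and Mrpl23 lies at -0.028.

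In the PI3K-AKT-mTOR list 1 of 21 tested genes was a DEG, where 22.8% of all tested genes were. It was Phlpp1, which encodes a phosphatase that acts on AKT (log2FC 1.31). Of the other 20 genes, among them Akt1 (0.11) and Mtor (-0.055), none reached 2-fold. Without the fold threshold 15 of the 21 passed, 10 lower and 5 higher, near the 66.8% of all tested genes. The median of this list was -0.17. Among 10 tested genes of the insulin receptor family and of receptor adaptors, 2 were DEGs higher and 1 lower. The docking proteins Irs1 (1.26) and Gab1 (1.05) were higher, and Gab1 was no longer a DEG without V2 (0.99) or with glmTreat. Insr, the insulin receptor, did not pass (0.081, adjusted p = 0.347), and the adaptor Grb10, which restrains insulin and IGF receptors, lay just below 2-fold (0.95). Insrr, which encodes a related receptor that responds to alkaline pH, had 121, 129 and 116 counts in the vehicle libraries and 1, 0 and 1 counts in the β-SITO libraries. Pooled, this was a 215.6-fold lower level with an exact 95% counting interval of 59.3 to 1787.

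Of the 5 genes that carry growth hormone signals to Igf1, only Jak2, the receptor-associated kinase, was a DEG. It fell by 3.47 on the log2 scale, from 397.0 ± 25.1 to 35.9 ± 1.75 CPM (SD, n = 3). The transcription factor gene Stat5a (-0.84, edgeR adjusted p = 4.33e-07) was lower and Socs2, which encodes a feedback inhibitor of this pathway (0.52, edgeR adjusted p = 2.80e-06), was higher, both by less than 2-fold. The growth hormone receptor Ghr (-0.10) and Stat5b (0.045) did not pass. Among 11 genes of FOXO factors and targets 2 were DEGs and both were higher, a share near the 12.8% of all tested genes. The 2 DEGs were the stress sensor Sesn1 (1.94) and Txnip (1.53), which encodes an inhibitor of thioredoxin. Without the fold threshold 9 of the 11 passed, 8 higher and 1 lower, against 66.8% of all tested genes. Foxo1 (0.95) lay just below 2-fold, and the muscle atrophy genes Fbxo32 (-0.20) and Trim63 (-0.069) did not pass.

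The list of other proteins with an IGFBP-type domain had the highest median of the 7 lists, 1.92. Of its 9 tested genes 6 were DEGs and all 6 were higher, where 12.8% of all tested genes were DEGs in this direction. Htra3, a secreted serine protease, rose from 19.7 ± 1.40 to 385.9 ± 11.5 CPM (SD, n = 3), a log2FC of 4.29 (edgeR adjusted p = 2.21e-16). Kazald1 (3.23) and Ccn2 (2.57), which encodes connective tissue growth factor, followed. The other 3 DEGs had log2FC values of 1.89 to 2.26.

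**Figure D5:**
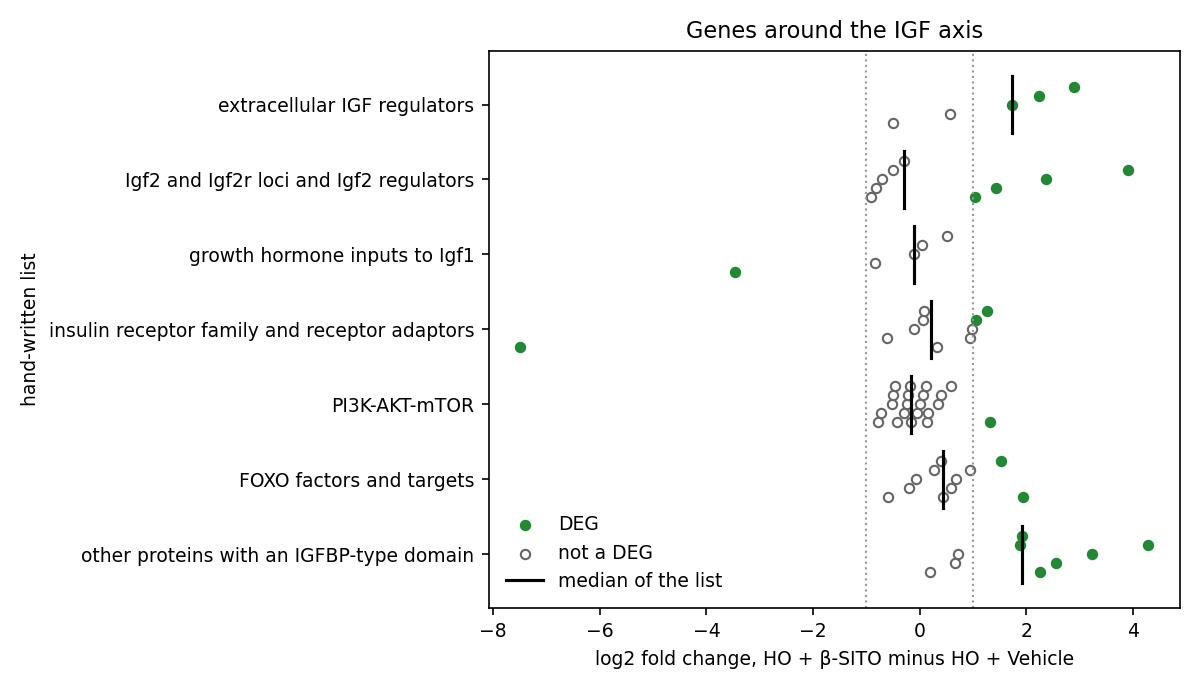
Log2FC of every tested gene in the 7 lists around the IGF axis, with filled points for DEGs, open points for other genes, a bar at the median of each list and dotted lines at 2-fold. The list of proteins with an IGFBP-type domain has a median of 1.92 and PI3K-AKT-mTOR one of -0.17. The point at -7.49 is Insrr, whose value depends on how near-zero counts are handled.

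Marker lists of cell types moved with these differences, and their part in them was not tested. Of all tested genes 12.8% were DEGs in the higher direction and 22.8% were DEGs in either direction. The 10 macrophage markers, none at 0 in all libraries, summed to 1200 to 1320 CPM under vehicle and 2626 to 3222 CPM with β-SITO, with 7 DEGs higher and 1 lower. The most abundant macrophage marker, Lyz2, had a log2FC of 1.12. The DEG in the lower direction, Fcgr1, had one of -2.18, and Adgre1 (-0.061) did not pass. Cd163 had 0, 0 and 2 counts in the vehicle libraries and 32, 36 and 32 counts in the β-SITO libraries. The 9 fibroblast markers summed to 30022 to 31267 and 45022 to 46148 CPM, with 1 DEG higher, a share near that of all tested genes. Col1a1, Col1a2 and Col3a1 made up most of both sums. Without the fold threshold 6 of these markers passed as higher and 2 as lower, Dcn (-0.52) and Postn (-0.22). Pdgfra (0.13) did not pass. The 9 endothelial markers summed to 711.7 to 793.7 and 1252 to 1270 CPM, with 8 DEGs higher. The most abundant endothelial marker, Eng, was not a DEG and had a log2FC of -0.39. The 8 markers of smooth muscle and pericytes (4 DEGs higher) summed to 1101 to 1194 and 1895 to 2149 CPM, and the 7 epicardial markers (3 DEGs higher) to 91.2 to 95.6 and 128.7 to 150.8 CPM. The 10 cardiomyocyte markers overlapped between the groups, at 5838 to 6741 and 5338 to 9118 CPM, with 3 DEGs higher. The ratio of group means of these sums in CPM ranged from 1.26 for cardiomyocyte to 2.25 for macrophage markers. The low end depended on the unit. Summed per kb of exon, the ratio for cardiomyocyte markers was 1.53, above those of the fibroblast and endothelial lists, and macrophage markers still had the highest ratio. Most of this cardiomyocyte difference came from Nppa, with means of 481.3 and 1359 CPM per kb. Among the others Myl7 (2.39) was higher, Actc1 (0.0048) nearly level and Tnnt2 (-0.47) lower. The sum in T4, 2264 CPM per kb, lay within the vehicle range of 2195 to 2519 CPM per kb. Single markers, picked here for their size, differed more, with log2FC values of 4.79 for Mrc1 of the macrophage list, 4.09 for Vwf of the endothelial list and 2.77 for Cnn1 of the smooth muscle list.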

How the data were processed

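RNA-seq libraries of NMCMs were grouped by their titles into HO + Vehicle (3) and HO + β-SITO (3). The authors deposited raw counts per gene, with no normalization. The submitters' processing notes name FastQC, HISAT2, featureCounts and GRCm39, and versions, annotation release and strand setting are not given in the sources used here. The totals of 16694734 to 18460522 counts per library limit the precision of genes with few counts. From the deposited counts, genes were filtered with filterByExpr and scaled by TMM, and glmQLFTest of edgeR 4.0.16 was run in R 4.3.3 with p-values adjusted after Benjamini and Hochberg over all 14799 tested genes. Alternatives used limma 3.58.1 and DESeq2 1.42.0. The study used DESeq2, run here as an alternative. CPM were computed on the counts of tested genes after TMM. The SE of a log2 fold change was taken as its size over the square root of the F statistic. Levels per length used all exon bases of a gene in GENCODE vM21, matched by Ensembl identifier, because the count table holds no lengths as had been planned for. Every pair of replicates differed by more than counting noise (chi-square per degree of freedom 1.96 to 9.06), so no library was counted as a repeat of another. The lowest value, 1.96, was that of T5 with T6, against 8.57 and 9.06 for T4 with T5 and with T6. This measure cannot tell separate cultures from separate libraries of the same culture. The scripts were tested on simulated data.

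The members and lists were chosen with earlier results of these data known. Named genes are all 10 members and, from each list, up to 3 DEGs in each direction with the largest change. Other genes of the lists, the region around Igf2 and the other imprinted genes were picked for mention after their values, or those of the members, were seen. Alternatives were other tests (DESeq2, limma-voom, glmTreat), other normalizations and filters, the removal of mitochondrially encoded genes and of each library in turn.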

Additional observations from a re-analysis of the deposited data

How the results depend on the processing

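All 5 DEGs among the members stayed DEGs with DESeq2, limma-voom, other normalizations, without mitochondrially encoded genes and in each fit that lacked 1 library. With glmTreat 4 members were DEGs, as Igf2r did not pass, and 4 in place of 9 had an adjusted p under 0.05, since that test is against 2-fold. With at least 10 counts required in every library Igf2 was not tested. With each library left out the count at any fold was 8 to 9, and 19 to 23 genes of the 7 lists were DEGs, against 18 with glmTreat. Upper quartile and library size only shifted the median log2 fold change of all tested genes to 0.136 and 0.141. The sign of Igfbp7 turned under these scalings (0.11 and 0.12), without V2 and without T5 (0.0017), each time without passing, and ranged from -0.038 to 0.032 with each library left out. The share of Igfbp4 was 5.55% and 28.3% on raw counts, and 2.89% and 15.8% on the length of the longest transcript, an alternative chosen after seeing the data. No paired analysis was possible because the groups share no replicate numbers. The cause of these changes was not tested, beyond what the alternatives do by construction.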

Other observations

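Since Igf2, H19, Igf2r and Plagl1 are imprinted, that is, expressed mainly from the chromosome of one parent, a list of 13 other imprinted genes was written after the values of the members had been seen. It was hand-picked and does not hold every imprinted gene, for example Grb10 (0.95, not a DEG). Of 12 tested genes 5 were DEGs, all higher in the HO + β-SITO group, against 12.8% of all tested genes, and none was a DEG in the lower direction. The median log2 fold change was 0.64. Mest, a marker of fetal mesoderm, had 9.94 ± 1.52 CPM under vehicle and 124.6 ± 10.6 CPM with β-SITO (SD, n = 3), and its log2 fold change was 3.65 (edgeR adjusted p = 4.52e-14). Peg3, which encodes a zinc finger protein, had 15.8 ± 1.91 against 138.4 ± 6.11 CPM (SD, n = 3), and its log2 fold change was 3.13. Cdkn1c, which encodes the cell cycle inhibitor p57 (2.63), Peg10 (2.27) and the noncoding RNA Meg3 (1.82) also rose.

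The other 7 tested genes were not DEGs. Of these, 4 were higher by less than 2-fold, with log2 fold changes of 0.81 for Snrpn, 0.46 for Gnas, 0.42 for Sgce, a neighbour of Peg10, and 0.31 for Ndn, and an edgeR adjusted p of 0.0091 or lower. Dlk1, a neighbour of Meg3, had 4.07 ± 0.679 against 4.02 ± 0.523 CPM (SD, n = 3), and Kcnq1ot1, a noncoding RNA that lies in the Cdkn1c domain, had 2.06 ± 0.198 against 1.90 ± 0.738 CPM (SD, n = 3). Nnat was lower, with a log2 fold change of -0.98 (edgeR adjusted p = 0.00307). Differences in response within these neighbouring pairs were not tested. Phlda2 had no count in any library. The number of DEGs on this list was 5 to 6 under all alternatives run.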
